A study of Mus musculus with 10 samples.

Results

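Genes of 10 heterotrimeric G protein subunits were read in the cortex of 5XFAD mice with and without neuronal Idol: the Gβ genes Gnb1, Gnb2, Gnb4 and Gnb5 and the Gα genes Gnao1, Gnas, Gnaq, Gnai1, Gnai2 and Gnal. They were 10 of 53700 gene identifiers counted and 10 of the 19268 genes tested, and all 10 passed the filter on low counts. The genes were chosen by name, with Gnb2 selected on its difference between these same groups, so the group values of these 10 genes are given as a description and carry no test.

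Cortex of female mice aged 4 months was sequenced in 10 libraries, 5 labelled 5XFAD and 5 labelled 5XFAD;Neu cKO. All of these mice carried the 5XFAD transgenes, which include mutant human APP and are driven by Thy1 sequence in neurons. In 5XFAD;Neu cKO mice, floxed Idol (Mylip), which encodes a ubiquitin ligase for lipoprotein receptors, was to be removed by Camk2a-Cre, a driver of forebrain excitatory neurons, so that glia and most interneurons keep the gene. The 5XFAD mice were littermates labelled WT for this cross, and the labels do not say which of the floxed and Cre alleles they carried. The kit was QuantSeq 3′ FWD, which reads a transcript at its 3′ end alone. Levels are therefore given in CPM (read counts scaled by TMM library size) and were not divided by transcript length. Reads on genes numbered 4320504 to 7466192 per library.

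The labels were checked on 2 points. Mylip was read at 7.18 to 19.4 CPM in 5XFAD;Neu cKO and at 9.32 to 14.7 CPM in 5XFAD. It was not read less in the knockout libraries (log2 fold change 0.39, adjusted p = 0.777, edgeR's quasi-likelihood test). Unless another test is named, adjusted p-values here and below are from this test, over all genes tested. A 3′ read does not show whether the floxed part was removed, so these reads do not decide whether Idol was deleted. By quantitative PCR on cortex, the paper reports lower Idol mRNA in neuronal knockout mice than in their controls. Reads on the near-identical pair mt-Nd3 and Gm28438, a nuclear copy of mitochondrial sequence, fell almost wholly on mt-Nd3 in 5XFAD replicate 2 and in 5XFAD;Neu cKO replicates 1, 3, 4 and 5 (88.1% to 99.5% of the pair's reads), and on Gm28438 in 5XFAD;Neu cKO replicate 2 and in 5XFAD replicates 1, 3, 4 and 5 (mt-Nd3 share 0.713% to 2.39%). In this split of reads, both libraries numbered 2 thus stood with the other group. Nothing here ties the split to the Idol or Cre genotype. The result for Gnb2 is given with and without both libraries numbered 2. Whether these libraries were exchanged was not tested. Gfap, an astrocyte gene named after its values were seen, was read at 33.7 to 59.1 CPM in the 5 libraries labelled 5XFAD and at 18.2 to 31.4 CPM in the 5 labelled 5XFAD;Neu cKO, those numbered 2 included. Groups without overlap were seen in 1.3% of all genes tested. As Gfap was picked with these values known, nothing about an exchange is read from them. Excitatory neuron markers (Slc17a7, Camk2a, Neurod6, Neurod2, Nrn1 and Tbr1) summed to 2185 to 2640.3 CPM in 5XFAD and 2198 to 2533 CPM in 5XFAD;Neu cKO, and each of the 6 was read in every library. Camk2a, at a mean of 1864 CPM in 5XFAD and 1781 CPM in 5XFAD;Neu cKO, made up most of this sum. In whole tissue, fewer cells of a type and less RNA per cell cannot be told apart.

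A G protein is a trimer of Gα, Gβ and Gγ. A receptor that binds its ligand makes Gα exchange GDP for GTP, and Gα and the Gβγ pair then part and act on separate effectors until Gα hydrolyses the GTP. Gαs and Gαolf stimulate adenylyl cyclase and raise cAMP, Gαi and Gαo oppose this, and Gαq activates phospholipase C, while Gβγ opens GIRK potassium channels and holds back presynaptic calcium channels. In cortex these proteins carry the signals of dopamine, acetylcholine, serotonin, GABA-B and metabotropic glutamate receptors.

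Because the Gα classes are told apart by the end of the protein that touches the receptor, the last 30 coding bases before the stop codon are shown for 5 of the Gα genes, as the canonical transcript of GENCODE gives them, with the codon at position 4 from the end in capitals. In Gnai1, Gnai2 and Gnao1 this codon was TGT or TGC, which encodes the cysteine that pertussis toxin modifies. In Gnaq and Gnas it was TAC, a tyrosine codon.
Gnai1: aagaataacctaaaagacTGTggtctcttc
Gnai2: aagaacaacctgaaggacTGTggcctcttc
Gnao1: gccaacaatctccggggcTGCggcttgtac
Gnaq: cagctgaacctgaaggagTACaatctggtc
Gnas: cgcatgcatctccgccaaTACgagctgctc
On GRCm39, the build of the deposited counts, each of these stretches lies in 1 coding exon: chr5:18472020-18472049 (minus strand) for Gnai1, chr9:107492837-107492866 (minus) for Gnai2, chr8:94693651-94693680 (plus) for Gnao1, chr19:16360726-16360755 (plus) for Gnaq and chr2:174188149-174188178 (plus) for Gnas.

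The Gβ genes Gnb1, Gnb2 and Gnb4 encode close relatives, each with 340 codons in the canonical transcript, whereas Gnb5, with 353, encodes the divergent Gβ that pairs with RGS proteins of the R7 type. The coding bases of their first coding exon are shown because reads can be assigned to 1 of these genes only where their sequences part. Capitals mark bases of Gnb1 and Gnb4 that differ from Gnb2.
Gnb2: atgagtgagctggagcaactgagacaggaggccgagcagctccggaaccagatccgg
Gnb1: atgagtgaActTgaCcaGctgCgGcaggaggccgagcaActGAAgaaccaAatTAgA
Gnb4: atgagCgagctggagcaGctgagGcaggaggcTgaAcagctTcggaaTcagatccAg
These 57 bases lie at chr5:137528957-137529013 (minus strand), chr4:155611910-155611966 (plus) and chr3:32656194-32656250 (minus) of GRCm39. Over the whole coding sequence of 1020 bases, Gnb2 was identical to Gnb1 at 77.0% of positions and to Gnb4 at 75.6%. The reads come from the other end of the transcript, and there the longest run of bases that any of the 45 pairs among the 10 genes shared in their last 500 bases was 14. Sharing of whole reads between members at their main 3′ ends was therefore not seen in the annotation.

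Gnb2 (ENSMUSG00000029713, chr5:137525542-137551860, minus strand), which encodes Gβ2, was the member whose groups stood apart. It was read at 117, 66.2, 115, 106 and 76.5 CPM in 5XFAD replicates 1 to 5 and at 138, 130.2, 159.8, 133 and 148 CPM in 5XFAD;Neu cKO replicates 1 to 5. All 5 libraries labelled 5XFAD;Neu cKO were above all 5 labelled 5XFAD, with 12.8 CPM between the highest 5XFAD and the lowest 5XFAD;Neu cKO library. The mean was 142 ± 12.2 CPM in 5XFAD;Neu cKO and 96.1 ± 23.3 CPM in 5XFAD (SD, n = 5 each), a 1.47-fold difference (log2 fold change 0.56, standard error 0.11). Gnb2 was the 1 of the 10 genes past the threshold of the fit (adjusted p under 0.05), where 0.218% of all genes tested passed in either direction and 0.0571% passed as higher in 5XFAD;Neu cKO. It was also the 1 of the 10 whose groups did not overlap, which held for 1.3% of all genes tested, with 0.576% having every 5XFAD;Neu cKO library on top. As Gnb2 was selected on this contrast, nothing is read from these counts.

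**Figure D1:**
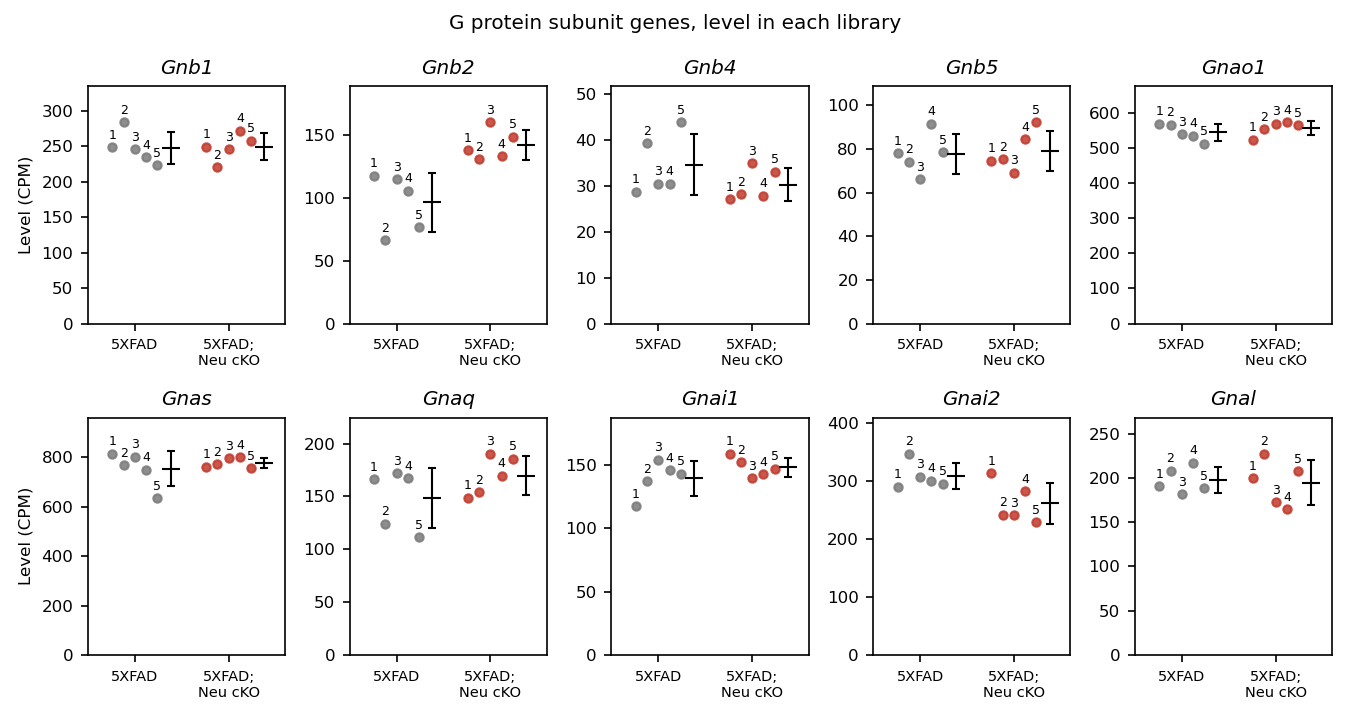
Level in CPM (vertical axes, from 0) of the 10 subunit genes in each library, with 5XFAD in grey and 5XFAD;Neu cKO in red; numbers are replicates, and black bars are the mean ± SD of 5 libraries. Gnb2 is the gene without overlap of the groups, and its 5XFAD points split into 105.5 to 117 CPM (replicates 1, 3 and 4) and 66.2 to 76.5 CPM (replicates 2 and 5).

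The 5XFAD libraries were not uniform in Gnb2. Replicates 1, 3 and 4 had a mean of 113 CPM, and replicates 2 and 5, the libraries with the fewest reads on genes (4693831 and 4320504), a mean of 71.3 CPM. Gnb2 was counted 282 to 1217 times per library, so that counting alone gives an error of 5.95% at the lowest count and 2.87% at the highest. The coefficient of variation of its CPM was 24.3% in 5XFAD, where the median over the 2204 genes within 2-fold of its mean level was 10.9%, and 8.58% in 5XFAD;Neu cKO, where that median was 9.76%. The spread of Gnb2 in 5XFAD was thus larger than counting gives and larger than that of most genes of its level.

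The size of the Gnb2 difference depended on those libraries. Without 5XFAD replicate 2 the log2 fold change was 0.45, without 5XFAD replicate 5 it was 0.49, and without both it was 0.33 with a standard error of 0.10. Gnb2 was no longer past the threshold without 5XFAD replicate 2, without 5XFAD;Neu cKO replicate 3 (log2 fold change 0.51) or without 5XFAD replicates 2 and 5. That the remaining 3 5XFAD libraries lay below all 5XFAD;Neu cKO libraries follows from the lack of overlap given above and adds nothing to it. Without both libraries numbered 2 the log2 fold change was 0.48, and with the mt-Nd3 class as a term it was 0.71 with a standard error of 0.15. Within the class with reads on mt-Nd3, the lone 5XFAD library had 66.2 CPM and the 4 others 133 to 159.8 CPM. Within the other class, the lone 5XFAD;Neu cKO library had 130.2 CPM and the 4 5XFAD libraries 76.5 to 117 CPM. The order of the groups within each class was likewise fixed by the lack of overlap over all libraries.

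Gnb1 (ENSMUSG00000029064, chr4:155566095-155644327, plus strand), which encodes the most abundant Gβ here, showed no such step. It was read at 249, 284, 246, 235 and 223 CPM in 5XFAD replicates 1 to 5 and at 249, 220.3, 246, 272 and 258 CPM in 5XFAD;Neu cKO replicates 1 to 5 (log2 fold change 0.01, standard error 0.08). The groups overlapped over most of their range, and 5XFAD replicate 2, where Gnb2 was lowest, was the highest library for Gnb1. Gnb5 (ENSMUSG00000032192, chr9:75213524-75253203, plus strand) lay at 66.2 to 91.5 CPM in 5XFAD and 69.2 to 92.2 CPM in 5XFAD;Neu cKO (log2 fold change 0.03, standard error 0.11). Gnb4 (ENSMUSG00000027669, chr3:32632743-32671909, minus strand), the least read member, lay at 28.7 to 43.8 and 27.1 to 34.9 CPM (log2 fold change -0.18, standard error 0.16), and its highest 5XFAD libraries were replicates 5 and 2, the lowest for Gnb2. Without these 2 libraries the log2 fold change of Gnb4 was 0.02.

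The Gβ genes were also counted against each other, as a description. Gnb2 was selected on this contrast, and a higher share for it largely follows from that choice. Nothing is read from the lack of overlap given below. Gnb2 held 14.3% to 25.1% of all reads on the 4 Gβ genes in 5XFAD (21.0% ± 4.69, SD, n = 5) and 25.7% to 31.3% in 5XFAD;Neu cKO (28.4% ± 2.01), without overlap. Gnb1 held 54.3% ± 4.05 and 49.8% ± 1.93, and its groups overlapped. The other 3 Gβ genes together summed to 359.6 ± 21.9 CPM in 5XFAD and 358 ± 25.5 CPM in 5XFAD;Neu cKO, so the difference in the Gβ sum, 456 ± 19.6 against 500.2 ± 30.1 CPM, was that of Gnb2.

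**Figure D2:**
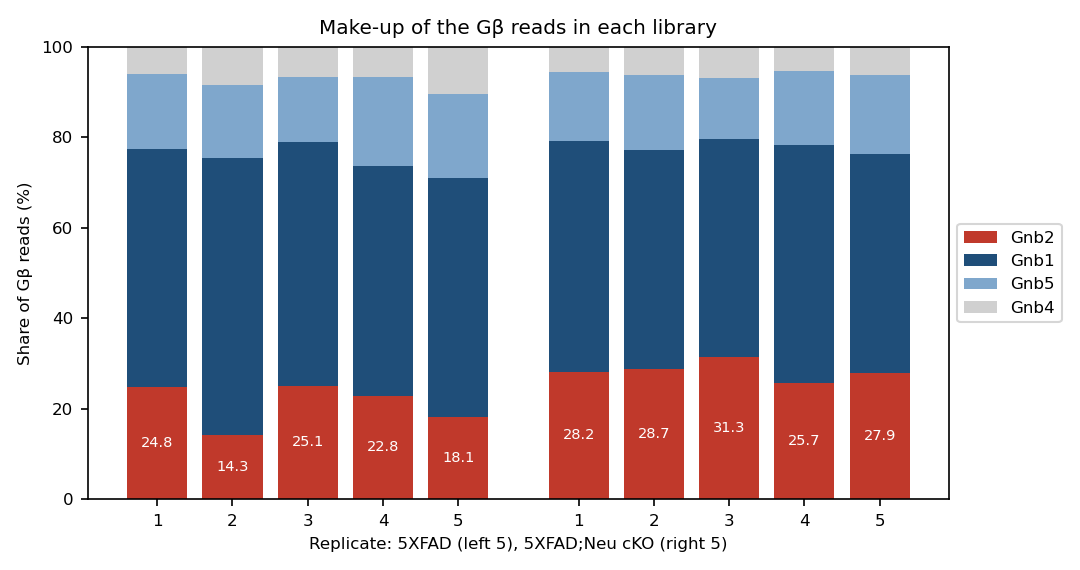
Share in percent (vertical axis, 0 to 100) of the reads on the 4 Gβ genes that fell on each gene, 1 bar per library, with 5XFAD replicates on the left and 5XFAD;Neu cKO replicates on the right. The red segment with its printed value is Gnb2, at 14.3% to 25.1% on the left and 25.7% to 31.3% on the right.

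The order of the Gβ levels was Gnb1, Gnb2, Gnb5 and Gnb4 by group means. Gnb1 was above Gnb2 in 10 of 10 libraries, by 2.12 to 4.29 times in 5XFAD and 1.54 to 2.04 times in 5XFAD;Neu cKO. Gnb2 and Gnb5 were neighbours that changed places: Gnb2 was the higher in 3 of 5 libraries of 5XFAD and in 5 of 5 of 5XFAD;Neu cKO. Gnb5 was above Gnb4 in 10 of 10. Gnb2 was selected on this contrast, so nothing is read from how its ratios and places differed between the groups. These orders are of reads at 3′ ends and do not measure protein.

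Among the Gα genes, Gnas and Gnao1 were read most. Gnas (ENSMUSG00000027523, chr2:174126022-174188537, plus strand) encodes Gαs, and its canonical transcript is the long XLαs form, which shares its 3′ end with Gαs, so these reads do not separate the forms. It lay at 634 to 814 CPM in 5XFAD and 755 to 800.3 CPM in 5XFAD;Neu cKO (log2 fold change 0.04, standard error 0.07), with a coefficient of variation of 9.52% in 5XFAD and 2.63% in 5XFAD;Neu cKO. Gnao1 (ENSMUSG00000031748, chr8:94536594-94696016, plus strand), which encodes the abundant Gαo of neurons, lay at 512 to 568 and 523 to 572 CPM (log2 fold change 0.03, standard error 0.07), with a coefficient of variation of 4.32% in 5XFAD and 3.59% in 5XFAD;Neu cKO. In both genes the ranges of the groups overlapped, and Gnas was above Gnao1 in 10 of 10 libraries.

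Gnai2 (ENSMUSG00000032562, chr9:107491324-107512626, minus strand), which encodes the Gαi found widely outside neurons, was the Gα member with the lowest log2 fold change. It was read at 290.3, 347, 308, 300.5 and 296 CPM in 5XFAD replicates 1 to 5 and at 314, 242, 241, 282 and 229.5 CPM in 5XFAD;Neu cKO replicates 1 to 5. In 5XFAD;Neu cKO, 4 libraries lay below every 5XFAD library, and replicate 1, at 314 CPM, lay above 4 of the 5. The fit gave a log2 fold change of -0.24 ± 0.09 (SE). All 9 microglial markers used (Cx3cr1, P2ry12, Csf1r, Tmem119, C1qa, C1qb, C1qc, Tyrobp and Aif1) had a negative log2 fold change in the same libraries, 5 of them past the threshold (0.218% of all genes tested), and their sum was 274 to 434 CPM in 5XFAD and 198 to 245 CPM in 5XFAD;Neu cKO, with no marker at 0. Within groups, log2 Gnai2 and the log2 microglial sum over the 10 libraries gave Pearson r = 0.34 (permutation p = 0.346, adjusted 0.346) and Spearman rho = 0.32 (permutation p = 0.368, adjusted 0.368), with r = 0.17 without 5XFAD replicates 2 and 3, and 2 such relations were computed. The part of microglial RNA in the Gnai2 difference was not tested.

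Gnai1 (ENSMUSG00000057614, chr5:18469193-18565655, minus strand), the Gαi gene of neurons, lay at 117 to 154 CPM in 5XFAD and 139 to 159 CPM in 5XFAD;Neu cKO (log2 fold change 0.08, standard error 0.09). The groups overlapped, and a single library, 5XFAD replicate 1, lay below the rest. Gnai1 was below Gnai2 in 10 of 10 libraries, at 0.395 to 0.50 times its level in 5XFAD and 0.504 to 0.64 times in 5XFAD;Neu cKO. These ranges all but met, at 0.50 and 0.504. No share over other gene pairs was computed, so nothing is read from their order. Gnai2 held 14.8% ± 1.10 of the reads on the 6 Gα genes in 5XFAD and 12.4% ± 1.63 in 5XFAD;Neu cKO (SD, n = 5 each), with overlap.

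Gnaq (ENSMUSG00000024639, chr19:16110027-16365882, plus strand), which encodes the Gα that couples receptors such as mGluR5 and M1 to phospholipase C, followed Gnb2 from library to library. It was read at 166, 124, 172, 167 and 112 CPM in 5XFAD replicates 1 to 5 and at 149, 154, 190.4, 169.6 and 186 CPM in 5XFAD;Neu cKO replicates 1 to 5 (log2 fold change 0.19, standard error 0.10). Its lowest libraries were 5XFAD replicates 5 and 2, as for Gnb2, and the other 3 5XFAD libraries lay inside the 5XFAD;Neu cKO range. Without 5XFAD replicates 2 and 5 the log2 fold change of Gnaq was 0.01, where that of Gnb2 was 0.33.

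Gnal (ENSMUSG00000024524, chr18:67221287-67359863, plus strand) encodes Gαolf, which couples dopamine D1 and adenosine receptors to adenylyl cyclase in striatal projection neurons, where it stands in for Gαs. It was read at 191, 208, 182, 217 and 189 CPM in 5XFAD replicates 1 to 5 and at 199.8, 227, 173, 165 and 208 CPM in 5XFAD;Neu cKO replicates 1 to 5 (log2 fold change -0.02, standard error 0.09). The groups overlapped fully, but single libraries of both groups were high: 5XFAD;Neu cKO replicate 2 and 5XFAD replicate 4. The sum of 8 striatal projection neuron markers (Drd1, Drd2, Adora2a, Ppp1r1b, Penk, Rgs9, Pde10a and Tac1) was 797 to 1016 CPM in 5XFAD and 758 to 1086 CPM in 5XFAD;Neu cKO, and it was highest in these same 2 libraries. Within groups, log2 Gnal and the log2 sum gave Pearson r = 0.86 (permutation p = 0.00138, adjusted 0.00276) and Spearman rho = 0.85 (permutation p = 0.00284, adjusted 0.00568) over 10 libraries, and r = 0.72 without 5XFAD replicate 4 and 5XFAD;Neu cKO replicate 2. The marker list was chosen with these data known, and the permutations shuffled group-centred values over all 10 libraries, not within groups. The p-values are therefore printed as a description.

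Partners of Gαolf in striatum were high in the same libraries, with 1 exception. Gng7, the Gγ of that trimer, was highest in 5XFAD;Neu cKO replicate 2 at 145.5 CPM, but 5XFAD replicate 4, at 124.7 CPM, lay within the 92.9 to 138 CPM of the other 8 libraries. Adcy5, the striatal adenylyl cyclase, was read at 178 and 179.7 CPM in these 2 libraries and at 128 to 164 CPM in the other 8. Rgs9, a GTPase-activating protein of striatum, was read at 53.9 and 52.6 CPM and at 29.9 to 40.0 CPM in the other 8. Rgs9 is also 1 of the 8 markers in the sum above, so its agreement with that sum is partly built in. How much striatal tissue each dissection held was not measured.

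**Figure D3:**
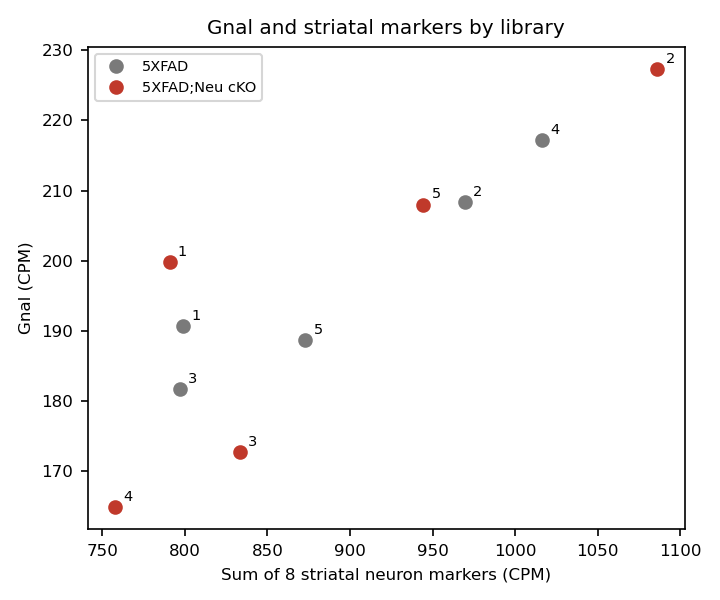
Gnal in CPM (vertical axis) against the summed CPM of 8 striatal projection neuron markers (horizontal axis), 1 point per library, with 5XFAD in grey, 5XFAD;Neu cKO in red and replicate numbers beside the points; neither axis starts at 0. Gnal rises from 165 to 227 CPM as the marker sum rises from 758 to 1086 CPM, with both groups mixed along the trend.

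Of the other subunit genes, 17 of 23 had enough reads to be tested (1 Gβ, 10 Gα and 12 Gγ genes were listed; Gnb3, Gna14, Gnat1, Gnat2, Gnat3 and Gngt1 were too low), and 0 passed the threshold in edgeR. At an unadjusted p under 0.05 there were 3 higher and 1 lower, where 7.95% of all genes tested had such a p. Gnai3, the third Gαi gene, was read at 10.1 to 16.6 CPM in 5XFAD and 14.2 to 26.4 CPM in 5XFAD;Neu cKO (log2 fold change 0.66, SE 0.22, adjusted p = 0.338, edgeR). Its groups overlapped at 5XFAD replicate 5. Gng13, a Gγ known from taste and retinal cells, was read at 35.8 to 49.3 and 28.6 to 37 CPM (log2 fold change -0.38, adjusted p = 0.436, edgeR). The most read of these genes, Gna11 (Gα11, log2 fold change 0.07), Gnaz (Gαz, -0.17), Gng3 (0.09) and Gng7 (-0.10), had adjusted p-values of 0.935, 0.746, 0.906 and 0.914 (edgeR). None of these 17 genes was past the threshold with DESeq2 either.

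**Figure D4:**
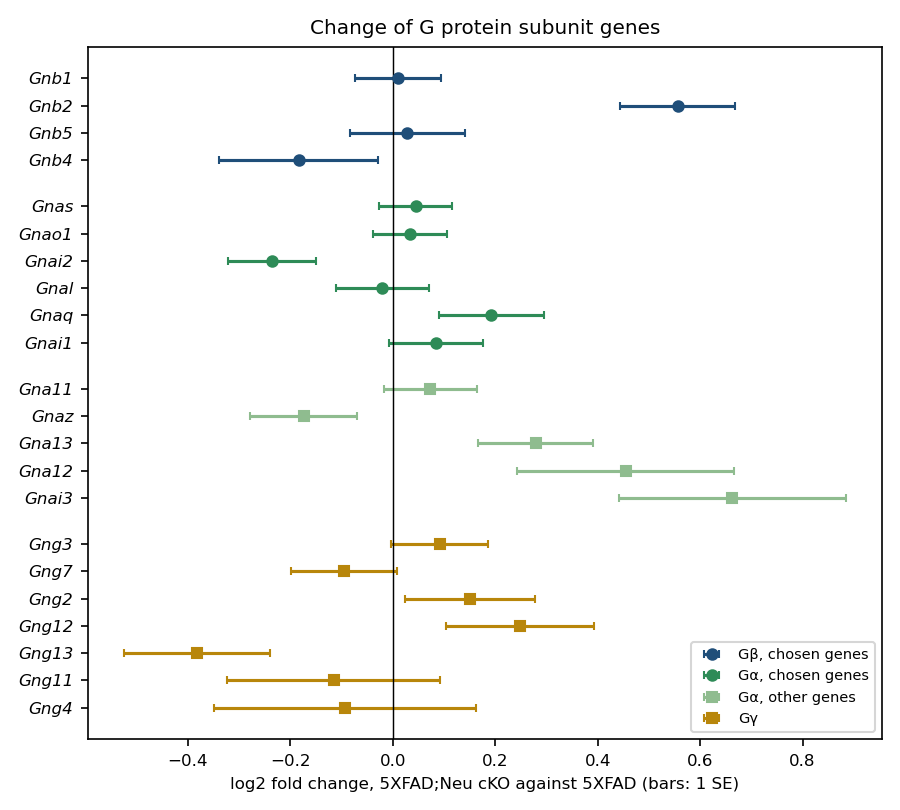
log2 fold change of 5XFAD;Neu cKO against 5XFAD (horizontal axis, bars are 1 standard error, worked out from edgeR's F statistic) for the 10 chosen genes (circles) and for the other Gα and Gγ genes with a mean of 5 CPM or more (squares), ordered in each class by level. Gnb2 at 0.56 lies apart from the other Gβ genes at -0.18 to 0.03, and Gnai3 at 0.66 has a wider bar.

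Effectors of Gα and Gβγ were tested from a list of 25 genes, of which 0 passed the threshold in edgeR and 3 had an unadjusted p under 0.05, all higher in 5XFAD;Neu cKO, as were 3.94% of all genes tested. Trio, an exchange factor for small GTPases driven by Gαq, came nearest. It was read at 133, 80.2, 132, 130.1 and 116 CPM in 5XFAD replicates 1 to 5 and at 143, 144, 174, 169 and 165 CPM in 5XFAD;Neu cKO replicates 1 to 5 (log2 fold change 0.42, SE 0.10, adjusted p = 0.063, edgeR). All 5 libraries labelled 5XFAD;Neu cKO lay above all 5XFAD libraries, as in 0.576% of all genes tested. For Trio, 5XFAD replicate 2 was far the lowest, and DESeq2 gave an adjusted p of 0.032. Adcy1 and Plcb1, the most read adenylyl cyclase and phospholipase C of the list, had log2 fold changes of 0.02 and 0.03 (adjusted p = 0.986 and 0.982, edgeR). Adcy8, a cyclase driven by calcium, had the highest log2 fold change at a mean of 5 CPM or more (0.51, adjusted p = 0.545), and Adcy9 the lowest (-0.23, adjusted p = 0.672).

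Of 33 regulators (RGS proteins, receptor kinases, arrestins and chaperones of Gα), 31 were tested and 0 passed the threshold in edgeR, with 1 at an unadjusted p under 0.05 (7.95% of all genes tested). That was Grk5, a receptor kinase (log2 fold change 0.54, adjusted p = 0.566). Rgs7bp, which anchors the Gβ5 and RGS7 pair at the membrane, and Rgs4, a brake on Gαi and Gαq, were the most read (log2 fold changes 0.09 and 0.06, adjusted p = 0.861 and 0.944). At a mean of 5 CPM or more, Rgs8 had the lowest log2 fold change (-0.27, adjusted p = 0.779).

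Of 70 receptor genes, 65 were tested and 1 passed the threshold, Cx3cr1, the fractalkine receptor of microglia (log2 fold change -0.51, SE 0.11, adjusted p = 0.0232, edgeR). Cx3cr1 was read at 87.4, 115, 74.7, 86.1 and 83.3 CPM in 5XFAD replicates 1 to 5 and at 65.1, 62.4, 60.5, 62.9 and 61.5 CPM in 5XFAD;Neu cKO replicates 1 to 5. Its groups did not overlap, as in 1.3% of all genes tested, and it is also one of the microglial markers above. It was no longer past the threshold without 5XFAD replicate 2 (adjusted p = 0.231, edgeR), without 5XFAD;Neu cKO replicate 3, 4 or 5 (0.0846, 0.0694 and 0.0801), without both libraries numbered 2 (0.262) or without 5XFAD replicates 2 and 5 (0.28). Among receptors of Gi/o type, 24 of 34 had a log2 fold change below 0, with a median of -0.11, and 16 of 20 of Gq type did, with a median of -0.12. Of the 11 Gs receptors, 5 were below 0. Over all genes tested, 49.9% had a log2 fold change above 0. At an unadjusted p under 0.05, 8 of the 65 receptors were lower and 0 higher, where 4.01% of all genes tested were lower with such a p. The 2 most read receptors of each type were, for Gi/o, Gabbr1 (-0.15, adjusted p = 0.617) and Gabbr2 (-0.02, 0.989), which form the GABA-B receptor, for Gq, Grm5 (-0.05, 0.956) and Chrm1 (-0.04, 0.978), and for Gs, Drd1 (-0.02, 0.99) and Adcyap1r1 (-0.11, 0.898). In their classes, Htr1a (0.52, adjusted p = 0.783) and Vipr1 (0.27, 0.882) had the highest log2 fold change at a mean of 5 CPM or more, Adra1b the lowest of Gq type (-0.34, 0.677), and Htr2a was the highest of Gq type at -0.01 (0.997). Over all 138 signalling genes tested, 1 passed the threshold and 16 had an unadjusted p under 0.05, 7 higher and 9 lower. Of all genes tested, 0.218% passed and 7.95% had such a p, 3.94% higher and 4.01% lower. The median log2 fold change of the 138 genes was -0.03.

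Markers of other cell types also differed between the groups. Of 7 astrocyte markers, 6 had a log2 fold change below 0 (sum 4039 to 4708 CPM in 5XFAD and 3934 to 4498 CPM in 5XFAD;Neu cKO), and Gfap passed the threshold (-0.88, adjusted p = 0.00202, edgeR). Slc1a2, at a mean of 3007 CPM in 5XFAD and 2916 CPM in 5XFAD;Neu cKO, made up most of the astrocyte sum. The 7 oligodendrocyte markers all had a log2 fold change below 0 (sum 2038 to 2958 CPM in 5XFAD and 1793 to 2817 CPM in 5XFAD;Neu cKO), and the 5 red blood cell genes all had one above 0 (sum 6.34 to 51.4 and 46.9 to 211 CPM). Mal, a myelin gene, passed the threshold (-0.48, adjusted p = 0.0427, edgeR), as did the haemoglobin genes Hba-a1 (2.16, 0.000302) and Hbb-bs (1.87, 0.000233). Excitatory neuron markers had 3 of 6 below 0, inhibitory neuron markers 3 of 7 and endothelial markers 2 of 5. In edgeR 0 of these passed, where 0.218% of all genes tested did. At an unadjusted p under 0.05 there were 1, 3 and 0, where 7.95% of all genes tested had such a p. The part of the marker shifts in the Gnb2 difference was not tested.

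The place of Gnb2 in the genome bears on what its reads can show. The canonical transcript runs from 137531772 to 137525542 on the minus strand of chromosome 5, and its 3′ end overlaps the 3′ end of Gigyf1 (ENSMUSG00000029714, chr5:137516810-137526197, plus strand), a translational repressor with a GYF domain, by 656 bases. The QuantSeq kit keeps strand, but the sources do not state the strand setting of the counting, and without it reads from these 2 genes cannot be told apart there. Between 0.428% and 0.467% of reads were set aside by the counting as ambiguous. On the other side, Actl6b (ENSMUSG00000029712, chr5:137551767-137567844, plus strand), a subunit of the neuronal BAF chromatin remodeller, starts head to head with the longest form of Gnb2 and shares 94 bases with it. Epo lies on the same strand over Gnb2, and 1 read was counted on it in all.

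The mean of both flanking genes was above that of 5XFAD in 5XFAD;Neu cKO. Gigyf1 was read at 39.1, 27.7, 31.1, 33.2 and 32.1 CPM in 5XFAD replicates 1 to 5 and at 41.9, 47.5, 48.7, 43.6 and 44.4 CPM in 5XFAD;Neu cKO replicates 1 to 5 (log2 fold change 0.47, SE 0.14, adjusted p = 0.225, edgeR). Its groups did not overlap, and 0.576% of all genes tested had every 5XFAD;Neu cKO library on top. Actl6b was read at 27.7, 22.5, 27.4, 42.7 and 25.6 and at 44.5, 54.1, 35.3, 45.3 and 48.1 CPM (log2 fold change 0.63, SE 0.16, adjusted p = 0.063, edgeR), with 5XFAD replicate 4 inside the 5XFAD;Neu cKO range. Neither passed the threshold in edgeR, and both did with DESeq2 (adjusted p = 0.0491 for Gigyf1 and 0.0345 for Actl6b). Of 39 genes within 250 kb of Gnb2, 23 were tested, 0 passed in edgeR, and 3 had an unadjusted p under 0.05 (7.95% of all genes tested), these 2 and Mepce, which was lower in 5XFAD;Neu cKO (log2 fold change -0.75, adjusted p = 0.393) and was named after its values were seen. Over the 23, 15 had a log2 fold change above 0, as did 49.9% of all genes tested, with a median of 0.15.

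**Figure D5:**
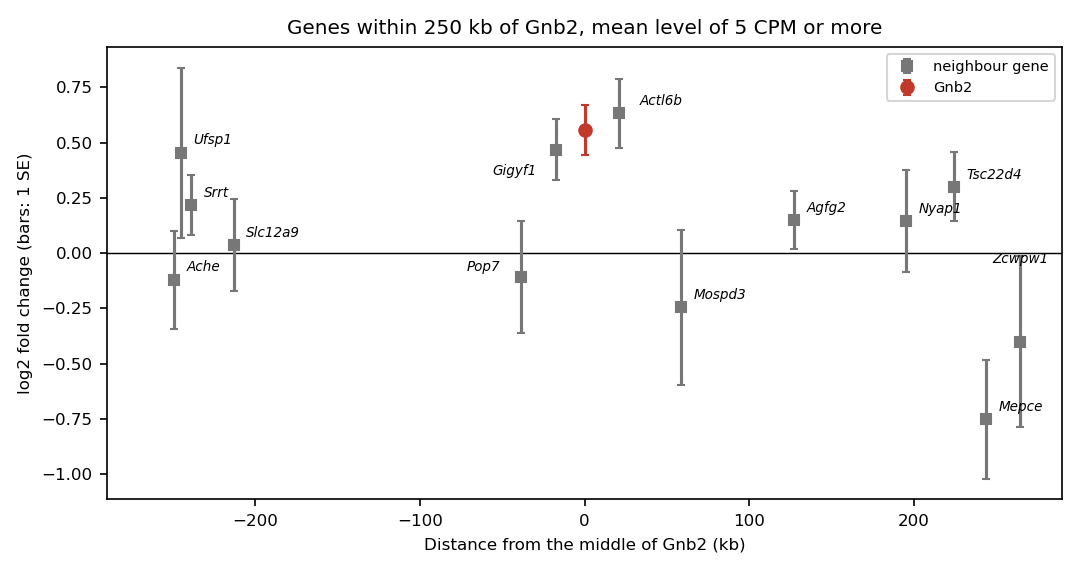
log2 fold change of 5XFAD;Neu cKO against 5XFAD (vertical axis, bars are 1 standard error) against distance in kb from the middle of Gnb2 (horizontal axis) for the 13 genes nearby with a mean of 5 CPM or more (grey) and for Gnb2 (red). Gigyf1 at 0.47, Gnb2 at 0.56 and Actl6b at 0.63 lie together, and the other 11 neighbours range from -0.75 to 0.45.

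Gigyf1 did not share the dip of Gnb2 in both of the low 5XFAD libraries: it was lowest in replicate 2, but replicate 5 lay inside the range of the rest. Within groups, Gnb2 and Gigyf1 had r = 0.67 over the 10 libraries and r = 0.11 without 5XFAD replicates 1 and 2. Gnb2 and Actl6b had r = 0.31. These are descriptions, since the points share libraries and depth.

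The genes whose pattern over the 10 libraries was most like that of Gnb2, by Pearson r of log2 CPM after each group's mean was taken away, among 8840 genes with a mean of 10 CPM or more, were Fam131a (r = 0.97), Eloc (0.97), Epdr1 (0.96), Celf4 (0.96) and Snap25 (0.96). Snap25, a SNARE protein of the presynapse, was read at 847, 579, 851, 826 and 642 CPM in 5XFAD replicates 1 to 5 and at 886, 796, 934, 919 and 929 CPM in 5XFAD;Neu cKO replicates 1 to 5. Celf4, an RNA-binding protein of neurons, was read at 1066, 689, 1067, 1039 and 842 and at 1055, 1101, 1161, 1067 and 1119 CPM. In both, 5XFAD replicates 2 and 5 were the low libraries, as they were for Gnb2. This was shared by many genes: in 526 others, 5.95% of the 8840, these 2 were the lowest of all 10 libraries, and 205 genes had an r of 0.8 or more to Gnb2. The log2 fold changes between groups of the 5 most alike genes were 0.39, 0.29, 0.10, 0.23 and 0.25 (adjusted p = 0.254, 0.567, 0.918, 0.393 and 0.287, edgeR), and 0 of the 5 passed the threshold. Fam131a and Celf4 passed it with the mt-Nd3 class as a term (adjusted p = 0.0415 and 0.0284). Without 5XFAD replicates 2 and 5 the log2 fold changes were 0.15, 0.04, -0.05, 0.06 and 0.08, and that of Gnb2 fell to 0.33. Gnb2 was selected on this contrast and the others were not, so nothing is read from the larger value of Gnb2.

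Among the members, Gnaq was nearest to Gnb2 (r = 0.88, rank 65 of 8840), then Gnas (r = 0.52). Gnao1 (r = 0.13), Gnb5 (-0.03), Gnai1 (-0.18), Gnb1 (-0.22), Gnal (-0.23), Gnai2 (-0.43) and Gnb4 (-0.58) did not follow it.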

How the data were processed

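Cortical RNA of mice was read in 10 QuantSeq 3′ FWD libraries, sequenced as single reads. After trimming, the authors mapped reads to GRCm39 with STAR (2.7.3a) and used htseq-count (HTSeq 0.9.1 in the submitters' processing notes) on Ensembl genes. The values the authors deposited are counts of reads per gene, whole numbers without normalization. The strand setting of the counting is not given in the sources used here. Rows for reads on no gene (31.3% to 39.9% of the reads kept) and ambiguous reads entered neither library sizes nor tests.

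Symbols came from GENCODE vM39, and 52610 of 53700 identifiers had one. Genes with a total count of 10 or less were removed, as in the study's methods. The 19268 left were fitted with edgeR 4.0.16 under R 4.3.3 (TMM, quasi-likelihood test, group as the only term; common biological coefficient of variation 0.281), with Benjamini-Hochberg adjustment over all of them and a threshold of 0.05. The labels do not tie libraries to animals, but the study gives 5 mice per genotype, so libraries were taken as separate mice. The steps were tested on counts simulated for each gene on its own. That simulation held no shifts shared by many genes of a library, so it does not cover them. Standard errors of log2 fold changes were worked out as the absolute log2 fold change divided by the square root of edgeR's F statistic. CPM used TMM library sizes, and log2 CPM a prior count of 2. Correlations with marker sums were given p-values from 100000 permutations, two-sided. These shuffled group-centred values over all 10 libraries and not within groups, so the p-values are approximate.

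The members, the gene lists and the marker lists were chosen with earlier results of these data known, and some marker genes are not reported here and entered no sum. Named genes were the members, in each signalling list the genes past the threshold, the 2 most read and the highest and lowest log2 fold change at a mean of 5 CPM or more, the flanking genes of Gnb2, and its 5 most alike genes. Other genes were named after their values were seen. Replicate numbers were not taken to pair libraries. Sequences were read from the GENCODE transcripts of GRCm39. Alternatives were DESeq2 1.42.0, its size factors in edgeR, filterByExpr, no filter, robust fitting, removal of mitochondrial genes, a block for the replicate number, omission of each library in turn, the mt-Nd3 class as a term, and leaving out both libraries numbered 2. Leaving out 5XFAD replicates 2 and 5 was chosen after seeing the data.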

Additional observations from a re-analysis of the deposited data

Results flagged for a closer look

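In 43 genes, 86 groups of 5 libraries were checked for a library far from the others, and 3 were found, where chance gives about 1 in 20. Gng12, a Gγ gene, was read at 72.3 CPM in 5XFAD;Neu cKO replicate 1 and at 41.0 to 46.3 CPM in the other 4 libraries of that group. Actl6b, beside Gnb2, was read at 42.7 CPM in 5XFAD replicate 4 and at 22.5 to 27.7 CPM in the other 4. Epdr1, one of the genes most like Gnb2, was read at 86.0 CPM in 5XFAD;Neu cKO replicate 3 and at 71.7 to 74.7 CPM in the other 4. No member had such a library.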

How the results depend on the processing

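Over all genes, 42 passed the threshold, and this became 69 with DESeq2, 91 with the mt-Nd3 class as a term, 103 with no filter on low counts, 27 without 5XFAD replicates 2 and 5, and 26 to 72 when each library was left out (fewest without 5XFAD replicate 2, most without 5XFAD;Neu cKO replicate 1). Of the 10 members, 1 passed, and 0 to 1 did when each library was left out: 0 without 5XFAD replicate 2 or 5XFAD;Neu cKO replicate 3, and 0 without 5XFAD replicates 2 and 5. The log2 fold change of Gnb2 stayed between 0.33 and 0.71 under all 20 alternatives. Of the other signalling genes, 1 passed, with 2 under DESeq2, 2 with the mt-Nd3 class, 2 with no filter and 2 with a robust fit (Cx3cr1 and Trio each time), 0 without both libraries numbered 2, 0 without 5XFAD replicates 2 and 5, and 0 to 2 with each library left out, 0 without 5XFAD replicate 2 and without 5XFAD;Neu cKO replicates 3, 4 or 5. Of the Gnb2 neighbours, 0 passed, with 2 under DESeq2 (Actl6b and Gigyf1), 1 with the mt-Nd3 class, 1 with no filter and 1 with a robust fit (Actl6b each time), and 0 to 1 with each library left out (1 without 5XFAD replicate 4 or 5XFAD;Neu cKO replicate 3). The cause of these shifts was not tested.

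With the replicate number as a block, 112 genes, 1 member, 2 signalling genes (Cx3cr1 and Trio) and 1 neighbour (Actl6b) passed. Of the 5 genes most like Gnb2, Fam131a and Snap25 passed (adjusted p = 0.0233 and 0.0277, edgeR). The deviations of libraries with the same number had correlations of -0.08 to 0.05, and no library correlated best with its own number, so the numbers were not taken as pairs.

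Sign changes were seen in these genes. Among the members, with each library left out the log2 fold change ranged from -0.024 to 0.062 for Gnb1, -0.033 to 0.095 for Gnb5, -0.012 to 0.073 for Gnas and -0.082 to 0.033 for Gnal. With the mt-Nd3 class as a term it was -0.13 for Gnb1 and 0.034 for Gnal, and without 5XFAD replicates 2 and 5 it was -0.022 for Gnas and 0.019 for Gnb4. Among other genes, with the mt-Nd3 class as a term, the log2 fold change was -0.016 for Gna11, -0.011 for Adcy1, 0.027 for Drd1, 0.023 for Grm5 and 0.27 for Htr2a, and with the block it was 0.050 for Htr2a. Without 5XFAD replicates 2 and 5 it was -0.024 for Plcb1, -0.0076 for Adcy1, 0.092 for Drd1 and -0.047 for Epdr1, and without both libraries numbered 2 it was -0.019 for Plcb1. With each library left out it ranged from -0.0076 to 0.052 for Adcy1, -0.0065 to 0.11 for Rgs4, -0.12 to 0.042 for Drd1, -0.068 to 0.034 for Gabbr2 and -0.16 to 0.11 for Htr2a. None of these genes passed the threshold.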
